A study of Mus musculus with 6 samples.

Results

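Hepatocyte growth factor (gene Hgf), its receptor Met, the activating proteases Hgfac and St14 and the protease inhibitor Spint1 were followed in RNA from the aortic arch and thoracic aorta of mice. The genes were chosen by symbol, with results of the same comparison of knockouts with controls known, so their differences between the groups are given as a description, and a count of them past a threshold supports nothing. They are 5 of 36557 gene rows in the deposited tables, each symbol had 1 row, and all 5 were among the 17392 genes that passed the filter on low counts. The study compared 3 control libraries with 3 knockout libraries to ask what the microRNA gene Mir26b does in the atherosclerotic vessel. All animals, controls included, were Apoe-/- and had eaten a high-fat diet for 4 weeks, and mice without apolipoprotein E develop plaques on such a diet. The knockouts were Apoe-/- MiR26b-/-, that is, they also carried the deletion of Mir26b, while the controls did not. The labels give neither sex nor age, do not say that each library was a separate animal, and do not say which cells lack Mir26b, and no gene row used here tests its loss. The p-values given below therefore measure only the spread between these libraries.

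Hepatocyte growth factor is secreted as an inactive single chain, mostly by mesenchymal cells and some myeloid cells, and binds Met, a receptor tyrosine kinase best known from epithelial cells and endothelium. The single chain becomes active only after a serine protease cuts it, and membrane-bound Kunitz-type inhibitors hold those proteases in check. Active ligand makes Met dimerise and phosphorylate itself, and adaptors such as Gab1 and Grb2 carry the signal to the MAP kinase and PI3 kinase pathways. MicroRNAs of the miR-26 family have been reported to act on Hgf messenger RNA, and they pair with 3′ UTRs through bases 2 to 8, the seed.

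The mature microRNAs are shown because the deleted miR-26b shares its seed with miR-26a, whose 2 genes were not deleted. The seed is in capitals, and the sequences and positions are those of RefSeq on GRCm38.p6. The genes lie at chr1:74394324-74394344 (Mir26b), chr9:119031811-119031832 (Mir26a-1) and chr10:126995543-126995564 (Mir26a-2), all on the plus strand, counted over the mature form.
mmu-miR-26b-5p: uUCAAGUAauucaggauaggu
mmu-miR-26a-5p: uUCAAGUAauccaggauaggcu

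Among the 5 genes, only the longest annotated 3′ UTR of Hgf held matches to this seed. In the 1159 bases of the 3′ UTR of the transcript Hgf-204 (GENCODE release on GRCm38, plus strand), a 7-base match TACTTGA started at base 101 and an 8-base match TACTTGAA, which holds the 7-base letters, started at base 235. Both are printed here with their flanks, with the match in capitals, since they are where the deleted microRNA could pair with Hgf. The first lies at chr5:16619080-16619107 and the second at chr5:16619214-16619241.
Hgf 7-base match: aatcctagaacaacTACTTGAgtgttgt
Hgf 8-base match: atatctcctgaagaTACTTGAAtgaatt

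Such letters are common. The 8-base match was present in the longest 3′ UTR of 880 of 21042 genes (4.18%) and the 7-base match in 2033 (9.66%), searched on the transcribed strand only. The matches were also in the shorter 3′ UTR of Hgf-201 (313 bases), and not in the 17 bases annotated for Hgf-203. The longest 3′ UTRs of Met (2157 bases), St14 (464), Spint1 (565) and Hgfac (144) held neither, which says only that these letters are not there.

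In the count table Hgf, the ligand (ENSMUSG00000028864, chr5:16553495-16620152, plus strand), was higher in every knockout library than in any control. Levels are in CPM, estimated counts scaled to the library size, after TMM scaling, a correction for differences in library composition. Hgf stood at 3.42, 2.79 and 2.09 CPM in controls 1, 2 and 3 and at 33.0, 30.0 and 9.79 CPM in knockouts 1, 2 and 3. Knockouts 1 and 2 were close to each other, and knockout 3 lay between them and the controls. The means were 2.77 ± 0.665 CPM (SD, n = 3) and 24.3 ± 12.6 CPM (SD, n = 3). The fitted difference was 8.77-fold, or 3.13 on the log2 scale (SE 0.48), and 42 of the 17392 tested genes (0.241%) had a larger one. Over the control mean, knockouts 1, 2 and 3 stood 11.9-fold, 10.9-fold and 3.54-fold higher. The values rested on 110 to 181 estimated counts per control library and 517 to 1763 per knockout library. In whole tissue, more cells that make a transcript and more transcript per cell cannot be told apart, which holds for every gene here.

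The receptor gene Met (ENSMUSG00000009376, chr6:17463800-17573980, plus strand) differed far less. It stood at 12.9, 11.8 and 9.34 CPM in the controls and at 15.9, 16.7 and 14.5 CPM in the knockouts. The groups did not overlap, but the lowest knockout was only 1.60 CPM above the highest control. The means were 11.4 ± 1.85 and 15.7 ± 1.10 CPM (SD, n = 3 each), and the fitted log2 difference was 0.47 (SE 0.13), or 1.38-fold. Of the tested genes, 13.9% had a larger log2 difference. Knockout 3, which stood apart for Hgf, was 1.28-fold over the control mean for Met, beside 1.40-fold and 1.47-fold in knockouts 1 and 2.

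Of the proteases that activate the ligand, St14 was higher in the knockouts and Hgfac was near the limit of the depth. Hgfac (ENSMUSG00000029102, chr5:35041509-35048461, plus strand) encodes a plasma protease made mainly in liver, and it was scarce in the aorta. It stood at 0.643, 0.538 and 0.361 CPM in the controls and at 0.374, 0.361 and 0.455 CPM in the knockouts, from 19 to 34 estimated counts in each library. The groups overlapped in CPM, and the fitted log2 difference was -0.37 (SE 0.28). On the rescaled TPM scale, which allows for transcript length, Hgfac stood at 1.47, 0.634 and 1.08 in the controls and at 0.587, 0.550 and 0.605 in the knockouts, where every knockout was below every control. Whether Hgfac differed thus turned on the scale. St14 (ENSMUSG00000031995, chr9:31089402-31131853, minus strand) encodes matriptase, a membrane protease of epithelia. It stood at 2.36, 2.96 and 2.68 CPM in the controls and at 7.26, 6.32 and 3.31 CPM in the knockouts. The groups did not overlap, and knockout 3 was only 0.356 CPM above the highest control. The St14 means were 2.67 ± 0.298 and 5.63 ± 2.06 CPM (SD, n = 3 each), and the fitted difference was 2.11-fold, or 1.08 on the log2 scale (SE 0.29).

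Spint1 (ENSMUSG00000027315, chr2:119237362-119249527, plus strand) encodes HAI-1, the membrane inhibitor of matriptase and of the Hgfac protease. It stood at 0.302, 0.384 and 0.190 CPM in the controls and at 1.91, 2.35 and 0.795 CPM in the knockouts. Every knockout was above every control, and knockout 3 was again the lowest knockout. The Spint1 means were 0.292 ± 0.0974 and 1.69 ± 0.803 CPM (SD, n = 3 each), with a fitted difference of 5.73-fold, or 2.52 on the log2 scale (SE 0.47). The counts behind it were low, 10 to 20 per control library and 42 to 124 per knockout library. Among tested genes 112 (0.644%) had a larger log2 difference than Spint1.

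**Figure D1:**
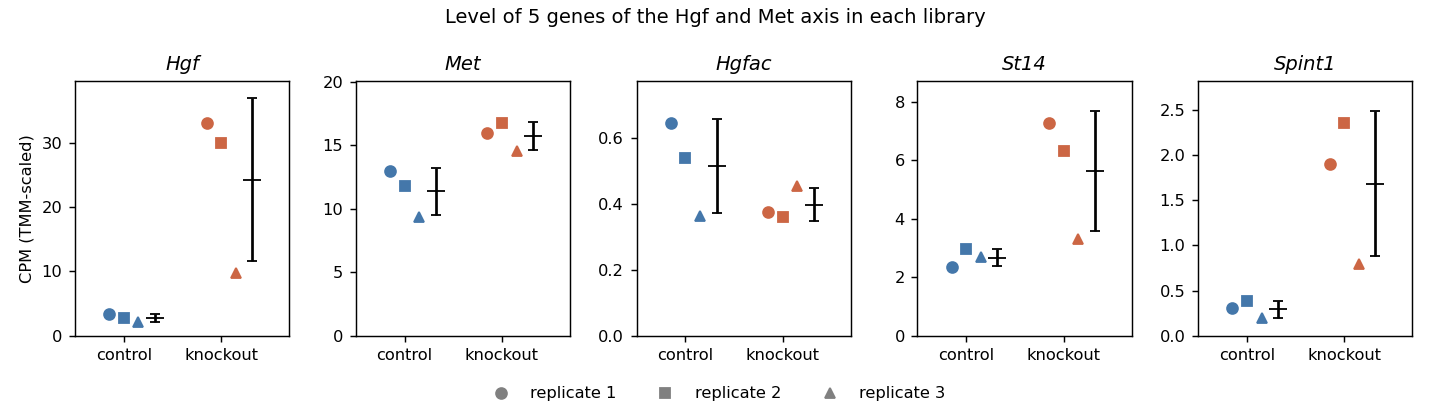
Level of Hgf, Met, Hgfac, St14 and Spint1 in CPM (vertical axis, from 0, a scale for each gene) in each control and knockout library; point shapes are replicate numbers and the bar is the mean with 1 SD (n = 3). Knockout points lie above control points for Hgf, Met, St14 and Spint1 and overlap with them for Hgfac, and knockout 3 is the lowest knockout for Hgf, Met, St14 and Spint1.

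Of the 5 genes, 4 had every knockout above every control, where 3280 of all tested genes (18.9%) did. Hgf and Spint1 were called higher (edgeR adjusted p under 0.05 over all genes), where 6.50% of tested genes were, and 0 were called lower, where 3.84% were. The genes were chosen with this contrast known, so nothing is read from these counts. They also turned with the method. DESeq2 called 4 of the 5 higher (11.8% of all genes), limma-voom 0 (3.21%), and limma on log2(TPM + 1) 1 (2.65%). Without knockout 3 edgeR called 4 (17.2% of all genes), and with any other library left out 0 (0% to 0.293%).

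Per length of transcript, the order of ligand and receptor was reversed between the groups. Levels of different genes were compared on the deposited TPM scale, which corrects for transcript length and which the authors rescaled. Hgf stood at 1.92, 1.48 and 1.14 in the controls, below Met at 3.09, 3.06 and 2.08. In the knockouts Hgf stood at 19.0, 17.0 and 5.38, above Met at 3.87, 3.84 and 3.48. The ratio of Hgf to Met was thus 0.624, 0.483 and 0.545 in the controls and 4.91, 4.42 and 1.55 in the knockouts. Met was the more abundant transcript in all 3 controls and Hgf in all 3 knockouts, knockout 3 included.

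**Figure D2:**
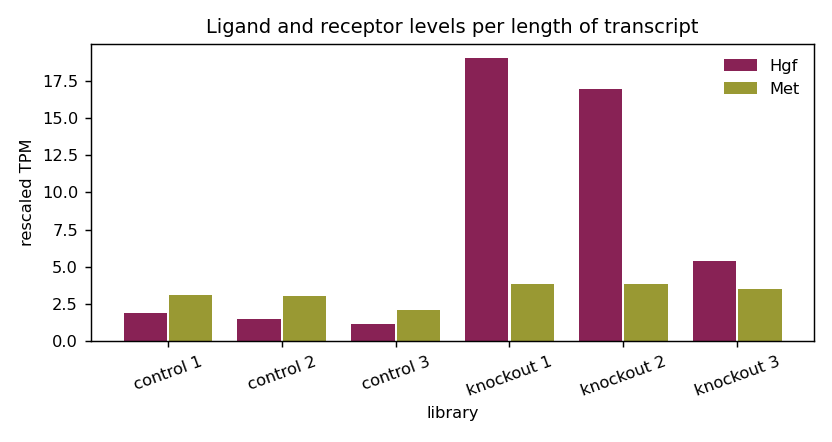
Rescaled TPM (vertical axis, from 0) of the ligand gene Hgf and the receptor gene Met in each of the 6 libraries, 1 bar per gene and library. Met is the taller bar in each control and Hgf in each knockout, by a ratio of 1.55 in knockout 3 and over 4 in the others.

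Among the 5 genes on this scale, the controls had mean levels of 2.74 ± 0.570 for Met, 1.51 ± 0.395 for Hgf, 1.26 ± 0.166 for St14, 1.06 ± 0.417 for Hgfac and 0.216 ± 0.0660 for Spint1 (SD, n = 3). Hgf, St14 and Hgfac lay within each other's spread. In the knockouts the order was Hgf at 13.8 ± 7.35, Met at 3.73 ± 0.220, St14 at 2.76 ± 1.08, Spint1 at 1.32 ± 0.657 and Hgfac at 0.581 ± 0.0281 (SD, n = 3), where the spreads of Met and St14 met, as did those of St14 and Spint1. The protease gene St14 stayed above its inhibitor gene Spint1 in all 6 libraries, with ratios of 4.86, 5.17 and 8.68 in the controls and 2.34, 1.69 and 2.69 in the knockouts, so that every knockout ratio was below every control ratio.

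Hgf was then set against myeloid genes, since macrophage transcripts were also higher in the knockouts. Cd68, a lysosomal glycoprotein of macrophages, stood at 23.2, 17.2 and 14.1 CPM in the controls and 131, 150 and 46.8 CPM in the knockouts, with a log2 difference of 2.59 (edgeR adjusted p = 0.0304). The log2 ratio of Hgf to Cd68 was -2.75, -2.61 and -2.73 in the controls and -1.99, -2.32 and -2.25 in the knockouts. Its means were -2.70 ± 0.0729 and -2.19 ± 0.174 (SD, n = 3 each), a difference of 0.51, and every knockout was above every control. Against Csf1r, the receptor of macrophage colony-stimulating factor, the difference was 1.88. Against Ptprc, the common leukocyte antigen CD45, it was 1.39, and against the mean log2 level of 20 myeloid markers it was 1.05. The groups did not overlap in any of these ratios. Hgf thus stood higher relative to each of these references, by an amount that varied with the reference. Ctss and Mpeg1 were not among the single genes used. The fitted log2 difference of Hgf was larger than theirs by only 0.06 and 0.25.

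None of the 20 myeloid markers had a larger log2 difference than Hgf. The nearest were Ctss, a lysosomal protease gene, at 3.07 (SE 0.49) and Mpeg1, which encodes a macrophage pore-forming protein, at 2.88 (SE 0.44), both within the standard error of Hgf. Of the 20 markers, 3 exceeded Spint1, 19 exceeded St14 and all 20 exceeded Met. Spint1 was higher in the knockouts, without overlap, against Csf1r by 1.22, Ptprc by 0.73 and the myeloid mean by 0.39 on the log2 scale. Against Cd68 the difference of Spint1 was -0.15 and its groups overlapped. St14 and Met were lower relative to the myeloid mean, at -0.91 and -1.43, and to Cd68, at -1.45 and -1.97, without overlap. Against Csf1r, St14 was near level at -0.08 and its groups overlapped, while Met was lower at -0.60 without overlap. Against Ptprc they stood at -0.57 and -1.09, and the groups overlapped for both. Spint1 thus stood above 3 of the 4 references and Hgf above all 4.

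**Figure D3:**
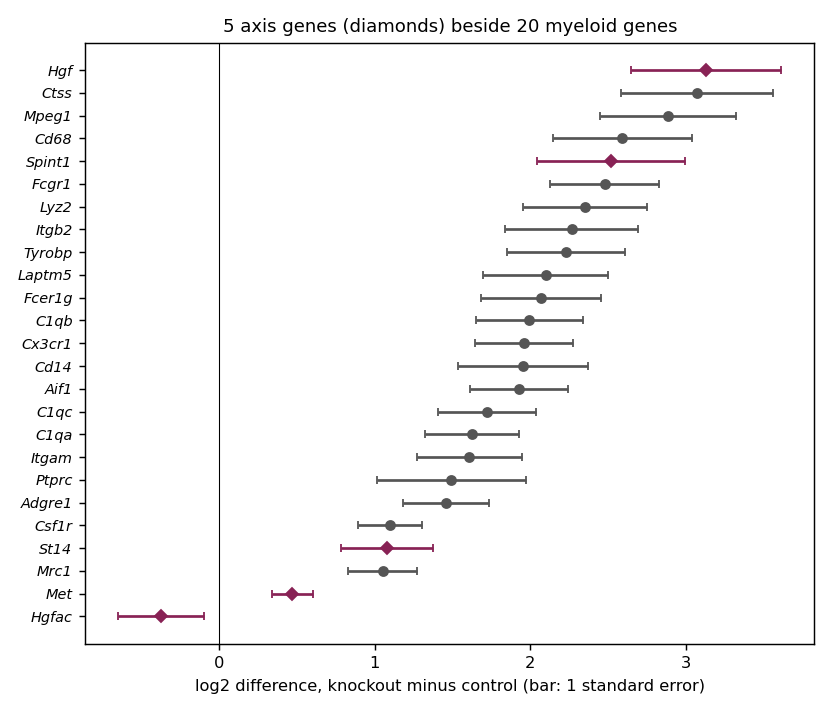
Fitted log2 difference, knockout minus control (horizontal axis), with a bar of 1 standard error, for Hgf, Met, Hgfac, St14 and Spint1 (diamonds) and 20 myeloid markers (circles), sorted by size. Hgf at 3.13 is at the top beside Ctss and Mpeg1, Spint1 lies among the myeloid genes, and Met and Hgfac lie below all of them.

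Knockout 3 was low in Hgf and in the myeloid genes alike. Over the control mean, on the log2 scale, Hgf stood at 3.59, 3.45 and 1.84 in knockouts 1, 2 and 3, Cd68 at 2.88, 3.08 and 1.39, and Spint1 at 2.61, 2.90 and 1.38. St14 stood at 1.44, 1.24 and 0.32, and Met at 0.50, 0.57 and 0.37. Knockout 3 was the lowest knockout in each of these 5 genes, while knockout 1 was the highest for Hgf and St14 and knockout 2 for Cd68, Spint1 and Met. On the first principal component of all genes knockout 3 was also intermediate, at 0.97, where every control was below -25 and the other knockouts were above 47. It was the highest knockout in adipocyte markers, with sums of 897, 1229 and 2104 CPM in knockouts 1, 2 and 3. The controls ranged from 826 to 2609 CPM. Mesothelial sums were 44.5, 50.1 and 92.4 CPM in knockouts 1, 2 and 3, and 57.9 to 155 CPM in the controls.

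Markers of some cell types were called and those of others were not. Their part in the level of Hgf was not tested. Of the 20 myeloid markers, 19 were called higher by edgeR and 0 lower, with a median log2 difference of 1.98, and Ptprc was the exception (adjusted p = 0.0926). Their summed level ranged from 803 to 1076 CPM in controls and from 2109 to 5812 CPM in knockouts. Fibroblasts are a known source of Hgf, and of 10 fibroblast markers 3 were higher and 1 lower, with a median of 0.30 and sums of 6661 to 7792 and 8521 to 10689 CPM. The matrix proteoglycan gene Lum rose by 1.77 on the log2 scale and the receptor gene Pdgfra by 0.42 (edgeR adjusted p = 0.0304 for each). Of 10 smooth muscle markers 5 were lower and 0 higher, with a median of -0.52 and sums of 37218 to 43007 and 25030 to 30080 CPM. The smooth muscle actin gene Acta2, the defining transcript of the vessel wall, was abundant in all 6 libraries, at 13163 to 14884 CPM in controls and 8735 to 10025 CPM in knockouts, and fell by 0.57 on the log2 scale (edgeR adjusted p = 0.0322). Of 10 endothelial markers 4 were higher. Of 8 tested neutrophil markers 1 was higher, the receptor gene Csf3r, with a median of 1.53. Their sums were 6.07 to 12.9 CPM in controls and 12.7 to 52.9 CPM in knockouts. A log2 difference above 0 was found in 7 of these 8, and in 8591 of all 17392 tested genes. Of 8 mast cell, 8 T cell, 7 B and plasma cell and 8 adipocyte markers, edgeR called 0 in either direction. Their medians were -0.09, 0.47, -1.88 and -0.65. The B and plasma cell sum was 112 CPM in control 2 and at most 12.1 CPM in any other library. Over all tested genes the median log2 difference was -0.00, with 6.50% called higher and 3.84% lower.

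Met, St14 and Spint1 are genes of epithelium, so epithelial markers were read beside them. Only 4 of 10 passed the filter, and the other 6, Epcam, Krt5, Krt14, Cldn4, Elf3 and Esrp1, had at most 32 counts in any library (Krt14 in control 2). The summed level was 3.53 to 8.51 CPM in controls and 3.72 to 6.84 CPM in knockouts. One of them was called, Cdh1, the cadherin gene of epithelia, which rose from 0.235 ± 0.0977 to 1.24 ± 0.539 CPM (SD, n = 3 each) with a log2 difference of 2.39 and an edgeR adjusted p of 0.0325. Epcam, a defining gene of epithelium, held 6, 15 and 6 counts in the controls and 6, 12 and 7 in the knockouts, too few for a test. Of 10 mesothelial markers 0 were called in either direction by edgeR, with 0 at an unadjusted p under 0.05 and 0 called by DESeq2. No gene of the marker lists was at 0 in all libraries.

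Beside other genes for ligands of receptor tyrosine kinases, Hgf stood near the bottom in the controls and nearer the middle in the knockouts. By mean rescaled TPM it was 30th of 34 ligand genes in the controls and 17th in the knockouts. By library it was 29th or 30th in the controls and 16th, 17th and 24th in knockouts 1, 2 and 3. Among the 34, the log2 difference of Hgf ranked 1st. Of the 32 other ligand genes tested (median 0.18), 3 rose and 0 fell by edgeR, beside 6.50% and 3.84% of all genes. The 3 were Fgf7, a fibroblast-derived factor for epithelial cells, at 0.83 (SE 0.15, adjusted p = 0.0305), Pgf, placental growth factor, at 0.69, and Csf1, the macrophage growth factor, at 0.25. Vegfc, a lymphatic growth factor gene, had 0.65 (edgeR adjusted p = 0.0555). Fgf18, named after its value was seen, had the highest difference of these 32, 1.10 (edgeR adjusted p = 0.0628). Igf1 did not pass by counts, at 0.47 (edgeR adjusted p = 0.0852). On the rescaled TPM scale its mean was 38.4 ± 0.974 in the controls and 71.5 ± 23.3 in the knockouts (SD, n = 3 each). There it ranked 12th and 5th of the 34, so the size of its difference turned on the scale.

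**Figure D4:**
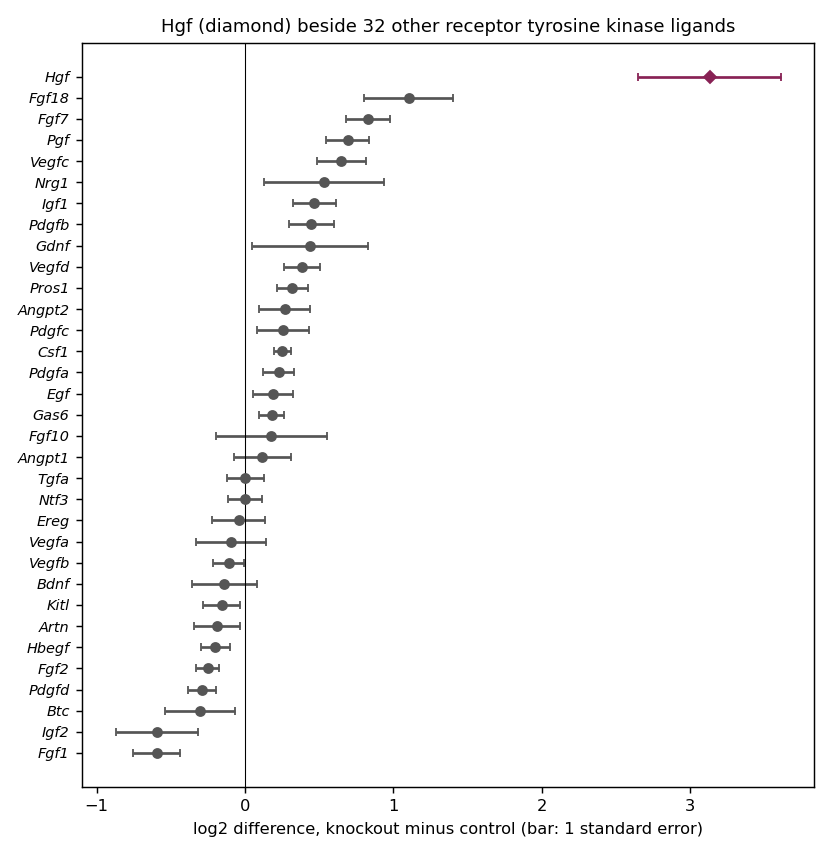
Fitted log2 difference, knockout minus control (horizontal axis), with a bar of 1 standard error, for Hgf (diamond) and 32 other ligand genes of receptor tyrosine kinases (circles), sorted by size. Hgf at 3.13 stands to the right of the others, of which Fgf18 at 1.10 is the highest plotted.

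Met kept its place among receptor tyrosine kinase genes, 26th of 32 by mean rescaled TPM in controls and in knockouts, while its log2 difference ranked 5th. Of the 30 other receptor genes tested (median -0.06), 5 rose and 3 fell by edgeR, beside 6.50% and 3.84% of all genes. Csf1r rose by 1.10, the endothelial receptor gene Tie1 by 0.53 and Pdgfra by 0.42, and the insulin-like growth factor receptor gene Igf1r fell by 0.31 on the log2 scale. The closest relatives of the pair did not pass the test. Mst1, the gene of macrophage-stimulating protein, had a log2 difference of -0.61 (SE 0.56), and its receptor Mst1r 0.03 (SE 0.12). Of the 5 relatives in all, Sema4d, which encodes a semaphorin whose receptors can couple to Met, rose by 1.15 (adjusted p = 0.0300) and Sema3a fell by 0.95 on the log2 scale (edgeR adjusted p = 0.0498).

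The other proteases and inhibitors that act on the ligand split by gene. Of 14 listed, 10 were tested, with a median of -0.03. By edgeR 2 rose and 0 fell, beside 6.50% and 3.84% of all genes. Plau, the urokinase gene, rose from 15.1 ± 1.11 to 40.5 ± 16.6 CPM (SD, n = 3 each), a log2 difference of 1.42 (SE 0.31, adjusted p = 0.0397). Hpn, which encodes hepsin, rose from 0.933 ± 0.0593 to 1.94 ± 0.173 CPM (SD, n = 3 each), a log2 difference of 1.05 (SE 0.16, edgeR adjusted p = 0.0245). Hpn was a low gene, as were St14 and Spint1. Plat, tissue plasminogen activator, had a log2 difference of -0.20 (adjusted p = 0.180) and the plasma kallikrein gene Klkb1 0.60 (edgeR adjusted p = 0.158). Spint2, the second membrane inhibitor of this group, had -0.16 (edgeR adjusted p = 0.236). Per length, Spint2 was the most abundant gene of this list, at 139 rescaled TPM in controls and 127 in knockouts, where Spint1 reached 0.216 and 1.32. The inhibitor that was higher in the knockouts was thus the scarcer of the 2. Prss8, Tmprss2, F11 and Serpina5 had at most 8 counts in any library and were not tested.

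Of 17 partners and sheddases of Met (median 0.27), 4 rose and 1 fell by edgeR, beside 6.50% and 3.84% of all genes. By limma-voom 0 of the 17 were called, where it called 3.21% of all genes higher and 2.96% lower. The laminin receptor gene Itga6 rose by 1.28 on the log2 scale (adjusted p = 0.0437), Nrp1, a co-receptor gene, by 0.27 (adjusted p = 0.0458) and the sheddase gene Adam17 by 0.31 (edgeR adjusted p = 0.0411). Adam10, another sheddase gene, rose by 0.31 and was named after its value was seen. Itgb1 fell by 0.37 on the log2 scale (edgeR adjusted p = 0.0455). Cd44, whose longer forms present the ligand to Met, had a difference of 1.05 and missed the threshold (edgeR adjusted p = 0.0693).

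Among the adaptors and kinases below the receptor the log2 differences were small, from -0.28 to 0.39. Of 25 adaptors and kinases (median -0.08), 0 rose and 2 fell by edgeR, beside 6.50% and 3.84% of all genes. Pik3ca, the catalytic PI3 kinase gene, fell by 0.22 (adjusted p = 0.0356) and the phosphatase gene Ptpn11 by 0.28 (edgeR adjusted p = 0.0417) on the log2 scale. Gab1 had a difference of -0.24 (adjusted p = 0.157) and Grb2 0.39 (edgeR adjusted p = 0.0675). Of 13 genes that damp the signal, 1 rose and 0 fell, beside 6.50% and 3.84% of all genes. It was Dusp6, an ERK phosphatase gene that is itself a target of MAP kinase signalling, at 32.0, 30.9 and 29.1 CPM in the controls and 59.7, 58.1 and 53.8 CPM in the knockouts. All 3 knockouts lay close together for Dusp6, knockout 3 included, unlike for Hgf, and its log2 difference was 0.90 (SE 0.06, edgeR adjusted p = 0.0068). Cbl, the ubiquitin ligase gene that sends Met to degradation, had 0.12 (adjusted p = 0.321) and the phosphatase gene Ptprj 0.20 (edgeR adjusted p = 0.166).

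**Figure D5:**
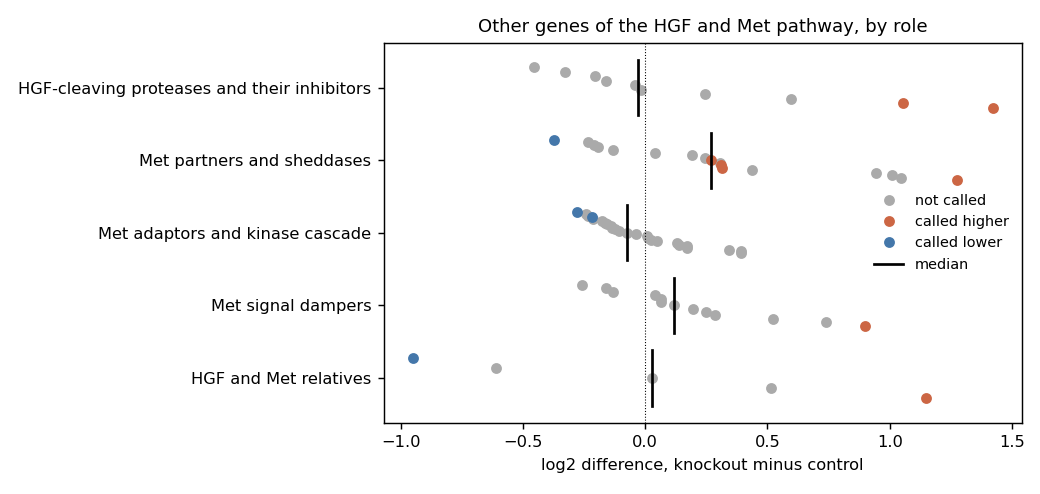
Fitted log2 difference, knockout minus control (horizontal axis), of each tested gene (point) in 5 lists of other pathway genes, with the list median as a vertical bar and edgeR calls in colour (orange higher, blue lower, grey not called). The medians lie between -0.08 and 0.27, far below the 3.13 of Hgf, and Plau, Itga6 and Sema4d are the called genes farthest to the right.

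Of 17 tested genes known to raise or lower Hgf transcription, 5 rose and 0 fell by edgeR, with a median of 0.62. Of all tested genes, 6.50% rose and 3.84% fell. The cytokine gene Il6 rose from 0.497 ± 0.302 to 14.7 ± 11.2 CPM and Il1b from 1.07 ± 0.578 to 15.7 ± 10.4 CPM (SD, n = 3 each), with edgeR adjusted p of 0.0338 and 0.0340. The log2 difference of Il6 was 4.88, and 5.49 without control 2 (edgeR adjusted p = 0.0873). Il1a rose by 2.84, the prostaglandin synthase gene Ptgs2 by 1.94 and the prostaglandin receptor gene Ptger4 by 0.47 on the log2 scale. In knockouts 1, 2 and 3, Il6 stood at 17.5, 24.2 and 2.27 CPM and Il1b at 19.0, 24.0 and 4.07 CPM. The third knockout was the lowest in both, as for Hgf. The growth factor genes Tgfb1, Tgfb2 and Tgfb3 were not called, with log2 differences of 0.75, -0.37 and -0.20. They were named after their values were seen. Whether any gene of this list changed the level of Hgf was not tested.

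Genes with a seed match were also read as a class. Whether loss of pairing with miR-26b raised Hgf was not tested. Of 778 tested genes with an 8-base match in the longest 3′ UTR, 5.40% were called higher and 4.88% lower, with a median log2 difference of -0.03, and 2 of them had a larger difference than Hgf. Of all 16142 tested genes with a 3′ UTR, 6.67% were higher and 4.01% lower, with a median of -0.01. Of 221 tested genes with at least 2 of the 7-base matches, as Hgf has, 7 were higher (3.17%) and 17 lower (7.69%).

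The genes whose level ran most like that of Hgf over the 6 libraries, by Pearson r of log2 CPM among 13832 genes, were Tmem106a (0.999), Reps2, Tnfsf13, Cd200r4 and Bhlhe40, and 102 genes exceeded 0.99. With 6 libraries of 2 groups, many genes reach such values, and the points of every gene come from the same libraries, whose depth and cell markers all genes share. With each group's mean taken off, the 5 nearest were Sdhaf2, Gbgt1, Ergic2, Ccl4 and Sav1, and 40 genes still exceeded 0.99. For Met the nearest were Car13 (0.998), Cd274, Sh3kbp1, Tnip3 and Mpdu1, and only 7 genes exceeded 0.99. With group means off they were Olfr77, Nol3, Rala, Rpia and Ndufaf8. For Spint1 they were Nuak2, Xdh, Cd48, Arap1 and Slfn2, with 230 genes over 0.99, and Ppp1r35, Nuak2, Cd48, Tlr7 and Nckap1l with group means off. For St14 they were the ribosomal protein gene Rps27a, Rps16-ps2, Smim3, Rps16 and Polr3c, where Rps16 and its copy can share reads, and Rps27a, Pcdhb17, Ormdl1, Parp9 and Atf1 with group means off. Among the members, Hgf had an r of 0.985 with Spint1, 0.941 with St14, 0.912 with Met and -0.52 with Hgfac over the 6 libraries. With group means off these were 0.912, 0.862, 0.643 and -0.04.

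The edgeR calls of the other genes named here rested on the set of libraries. Without control 1 or control 3, edgeR called 0 genes of all, while 4056 had an unadjusted p under 0.05 both times, and without knockout 3 it called 3051 higher (17.2%) and 2028 lower genes (11.4%). Without it the called members numbered 10 higher and 3 lower of 17 Met partners and sheddases, 6 and 4 of 25 adaptors and kinases, 5 and 0 of 13 dampers, 12 and 1 of 17 regulators of Hgf transcription, and 11 and 4 of 32 other ligand genes. DESeq2 on all 6 libraries gave 8 and 1, 2 and 4, 3 and 0, 10 and 2, and 9 and 3 for the same lists, where it called 11.8% of all genes higher and 7.60% lower.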

How the data were processed

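RNA from aorta was sequenced in 3 control and 3 knockout libraries, with groups and replicate numbers from the labels. The build GRCm38 and the tools kallisto 0.46.2, Trim Galore 0.6.5 and FastQC 0.11.8 are named in the submitters' processing notes. Where transcripts are alike, kallisto splits a read between them. The authors deposited estimated counts, which are not whole numbers and may have been divided by a factor for each library, so a printed count need not equal a number of reads, and a TPM table that they rescaled, used here as a signal because its columns sum to between 955527 and 1034723. Whether the libraries keep strand is not given in the sources used here, so overlapping and antisense genes cannot be told apart.

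Counts were rounded to whole numbers, filtered (filterByExpr, minimum count 10), TMM-scaled and tested over all genes with edgeR 4.0.16 (quasi-likelihood F-test, Benjamini-Hochberg, threshold 0.05) in R 4.3.3. Totals were 51634139 to 54817547 per library, so that 3 counts are 0.0561 to 0.0576 CPM, which limits genes as low as Hgfac. The log2 ratios used a prior count of 2. No pair of libraries within a group agreed within sampling noise, with a chi-square per gene from 12.2 to 110. The fit was tested on simulated data. Alternatives were other scaling and filters, DESeq2 1.42.0, limma 3.58.1 (voom, and log2(TPM + 1) or log2(TPM + 0.1)), a block for the replicate number, and omission of each library.

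The genes followed and all lists were chosen with earlier results of these data known. The rule for named genes took the 5 genes, Cd68, Csf1r and Ptprc, of each other list the 4 tested genes of lowest p plus 17 genes by role, and for each of the 5 whose mean log2 CPM was 0 or more (not Hgfac) the 5 genes of highest r. Values of some genes named by the rule are given only in the counts of their lists, and 1 ligand gene is not reported here and is left out of its list's counts and ranks. For seed matches, each protein-coding gene's longest 3′ UTR in GENCODE mouse release 21 was read.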

Additional observations from a re-analysis of the deposited data

How the results depend on the processing

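Under all 15 alternatives the log2 difference of Hgf kept its direction, between 2.40 (log2(TPM + 1)) and 3.51 (without knockout 3), as did those of Met, between 0.34 and 0.58, and of St14, between 0.69 and 1.35. Hgfac and Spint1 kept theirs under the 14 they could be computed for; Spint1 ranged from 0.89 (log2(TPM + 1)) to 2.86 and Hgfac from -0.70 (log2(TPM + 0.1)) to -0.18. The log2 ratio of Hgf to Cd68 differed by 0.51, and by 1.88, 1.39 and 1.05 with Csf1r, Ptprc or the myeloid mean in its place; the cause was not tested. Of 50 other genes followed under the alternatives, Mst1r alone reversed, to -0.0458 without control 3 and -0.0457 without knockout 3. Its range with a library left out was -0.0458 to 0.121. Some genes named here were not among the 50, such as Acta2, Fgf18, Vegfc and most genes named by r.

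The counts of called genes moved most. Beside 1131 higher and 667 lower in edgeR, DESeq2 called 2054 and 1321, limma-voom 559 higher, limma 461 and 251 on log2(TPM + 1), and 641 and 301 on log2(TPM + 0.1). With a library left out the counts ranged from 0 to 3051 higher and from 0 to 2028 lower; the cause was not tested. Scaling by library size alone gave 1476 higher and 447 lower. Of the same 50 other genes, 33 were called, and 33 kept the call without knockout 3 but 0 or 1 without any other library. Whether replicate numbers pair the samples cannot be told from 3 libraries per group. Deviations of same-numbered libraries correlated at -0.09, 0.23 and 0.08, and those of differently numbered libraries at -0.21 to 0.12. With the replicate block, Hgf was 7.98-fold higher, and 1295 genes were called higher, 3 of the 5 followed here among them, and 700 lower. Depth limits Hgfac and Spint1 most.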
